A study of Mus musculus with 9 samples.

Results

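The aminoacyl-tRNA synthetase genes were followed in mouse monocytes that had been kept with platelets. A gene belonged to the set if its symbol was 1 capital letter followed by "ars", with or without a final 1 or 2, or was Eprs, Farsa or Farsb. This gave 37 of the 55367 symbols in the count data: 20 genes of the cytosolic enzymes and 17 genes, with symbols ending in 2, of the mitochondrial enzymes. All 37 had enough counts to be tested, among 13707 genes in all. Monocytes of adult mice were incubated with a control buffer (Control), with platelets of adult mice (Adultplts) or with platelets labelled P7 (Neoplts), a short form that commonly stands for postnatal day 7. After 4 h the monocytes were washed and polyadenylated RNA was sequenced, with 3 libraries in each group. All groups thus share the adult monocytes, the incubation and the wash, and differ in what was added. The labels give no mouse strain, and do not say whether replicates came from separate animals or cultures, so the p-values weigh differences against the spread among these libraries alone, part or all of which may be technical.

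Aminoacyl-tRNA synthetases join each amino acid to its transfer RNAs and so supply the ribosome with charged tRNA. Cytosol and mitochondria have separate sets of these enzymes, all encoded in the nucleus and most by separate genes, although Gars and Kars each give rise to both a cytosolic and a mitochondrial enzyme, and Eprs encodes 1 protein that charges the tRNAs of glutamate and of proline. Several cytosolic enzymes sit together in the multi-synthetase complex on a scaffold of 3 further proteins. Many cytosolic synthetase genes are known targets of ATF4, the transcription factor of the amino acid response, and Wars is known as a gene induced by interferon.

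The count totals ranged from 29687341 to 37065564 per library, and the synthetase genes together held 0.333 to 0.369% of them. Levels are normalised CPM, counts scaled to a common library size, and a gene was called at an adjusted p below 0.05 in edgeR's quasi-likelihood test over all genes. Other RNA moved with the groups. In percent of the library, transcripts of 13 platelet genes averaged 0.00102 in control, 0.107 with adult and 0.125 with P7 platelets, those of 5 erythroid genes 0.00105, 0.0973 and 4.92, and all mitochondrially encoded transcripts 1.47, 2.15 and 2.38. Mitochondrial rRNA, which is counted among the last, alone averaged 0.148, 0.960 and 1.03%. Of the platelet genes, Gp1bb, Gp6 and Mpig6b were at 0 in all control libraries. The monocyte markers were abundant in every library: the 10 together reached 24180 to 30910 CPM of the unscaled total, against 342 to 1183 CPM for 8 B and plasma cell markers, 366 to 697 CPM for 9 neutrophil markers, 56.9 to 109 CPM for 7 dendritic cell markers and 7.95 to 25.3 CPM for 8 T and NK cell markers. Igkc, an immunoglobulin transcript of B and plasma cells, was high, at 410 to 772 CPM before scaling, in replicate 1 of every group and in adult platelet replicate 3. The other 5 libraries had 123 to 172 CPM of it. In such bulk samples fewer cells of a type and less RNA per cell cannot be told apart.

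The cytosolic genes were expressed at higher levels than the mitochondrial ones, with 1 exception. In control libraries, the level per kb of merged exons ranged from 9.14 to 72.7 CPM per kb for the 20 cytosolic genes, with a median of 20.9. The median of the 17 mitochondrial genes was 2.86 CPM per kb. Lars2, the mitochondrial leucyl-tRNA synthetase gene, stood at 29.8 ± 3.25 CPM per kb (SD, n = 3), while the other 16 mitochondrial genes reached at most 8.83, the level of Hars2. The highest levels per kb belonged to Nars (72.7 ± 2.41), for the asparaginyl enzyme, Gars (54.1 ± 1.51), for the glycyl enzyme, and Mars1 (45.0 ± 2.32), for the methionyl enzyme. The lowest belonged to Ears2 (0.501 ± 0.0397), for the mitochondrial glutamyl enzyme. Lars2 alone made up 44.6 to 62.6% of the counts of the mitochondrial class, and its levels per length depend on the gene model: by the longest coding transcript it ranked at 2 of the 37 genes, by merged exons at 6.

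Most cytosolic synthetase genes were higher after contact with platelets, and more so with P7 platelets. With adult platelets 13 of the 20 were called higher and 0 lower than in control, beside 14.3% of all tested genes called higher and 12% called lower (26.4% in either direction). This count of 13 was 8 without control replicate 3, and 1 in a test against a fold of 1.2. The calls of higher genes over all genes fell as well, from 1966 of 13707 to 1194 of 13914 and to 649 of 13707. With P7 platelets 16 were called higher and 2 lower than in control, beside 29.9% of all genes higher and 29.3% lower (59.2% in either direction). Between both kinds of platelets, 11 were called higher with P7 platelets and 2 lower, beside 19.7% of all genes higher and 19.8% lower (39.6% in either direction). The median log2 fold change of the 20 genes was 0.28 for adult and 0.58 for P7 platelets against control, and 0.22 for P7 against adult platelets. The medians over all tested genes were 0.00, -0.01 and -0.02. These values rest on the scaling, whose factors (TMM) averaged 1.082 in control, 1.035 with adult and 0.893 with P7 platelets. Before scaling, the 37 synthetase genes together held on average 0.334, 0.352 and 0.354% of the library. With upper-quartile scaling the cytosolic median for P7 against adult platelets was 0.15, where that of all genes was -0.10. The part of the scaling in this step was not tested further. Counted by libraries that do not overlap, 14 cytosolic genes lay above control and 0 below with adult platelets, beside 21.8% and 20.9% of all genes (42.7% in all). With P7 platelets these were 16 above and 2 below control, beside 34.5% and 34.7% (69.1% in all), and between P7 and adult platelets 11 and 2, beside 24.2% and 24.8% (49% in all). Both comparisons with control share the control libraries, so their values stand side by side, and only the comparison of P7 with adult platelets tests a difference between the responses.

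**Figure D1:**
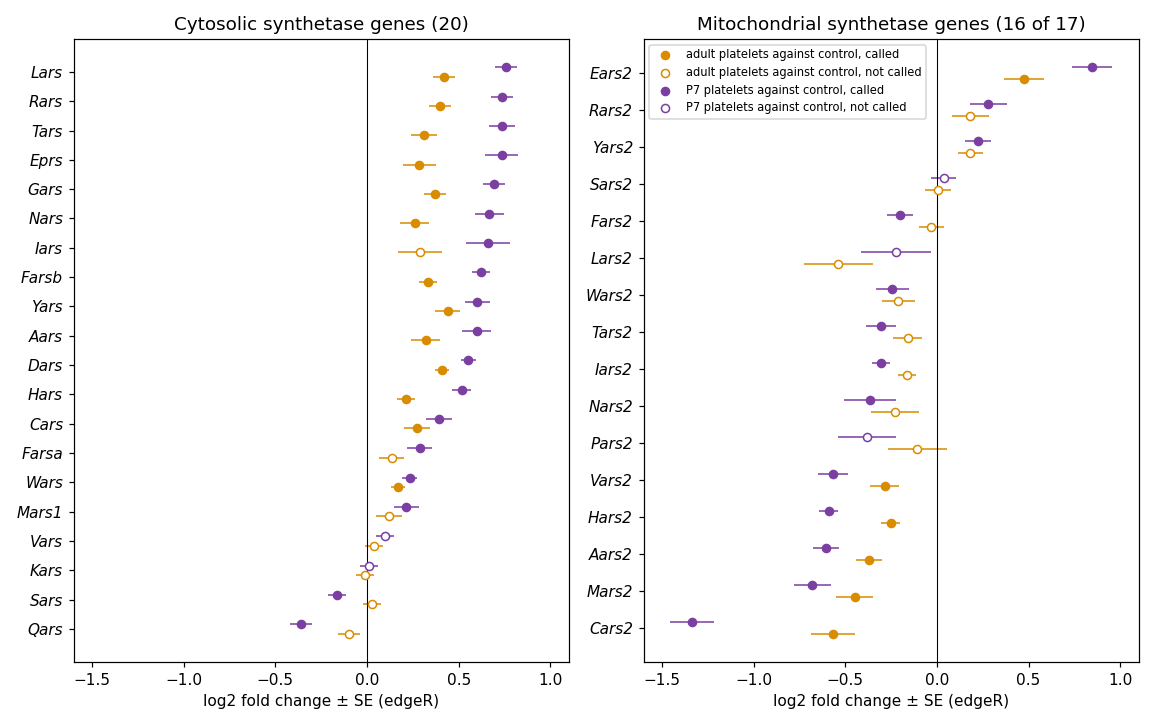
Log2 fold change ± SE (edgeR) of each cytosolic gene (left) and 16 of the 17 mitochondrial genes (right) for adult platelets against control (orange) and P7 platelets against control (purple). Filled points passed an adjusted p of 0.05 and open points did not. With P7 platelets, 16 of 20 cytosolic genes were called higher and 11 of 17 mitochondrial genes lower.

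Lars, which encodes the cytosolic leucyl-tRNA synthetase of the multi-synthetase complex, stood at 108, 118 and 116 CPM in control replicates 1 to 3, at 149, 165 and 144 CPM with adult platelets and at 184, 196 and 201 CPM with P7 platelets. All 3 groups were apart, with control lowest and P7 platelets highest. The log2 fold change was 0.42 ± 0.06 for adult platelets (adjusted p = 0.00195, edgeR), 0.76 ± 0.06 for P7 platelets (adjusted p = 1.28e-05) and 0.34 ± 0.06 for P7 against adult platelets (adjusted p = 0.00276). Rars, for the arginyl enzyme of the same complex, had 62.9, 60.5 and 57.6 CPM in control, 85.7, 78.7 and 74.4 CPM with adult platelets and 99.6, 101 and 101 CPM with P7 platelets. Again no library of 1 group reached the range of another. Its log2 fold changes were 0.40 ± 0.06, 0.74 ± 0.06 and 0.34 ± 0.06 in the same order (adjusted p = 0.00156, 9.50e-06 and 0.00199, edgeR).

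Tars, which encodes the threonyl-tRNA synthetase, rose from 104, 113 and 109 CPM in control to 126, 145 and 133 CPM with adult platelets and 164, 189 and 189 CPM with P7 platelets. Its step from adult to P7 platelets was 0.42 ± 0.07 on the log2 scale (adjusted p = 0.00184, edgeR). Gars had 168, 174 and 165 CPM in control, 205, 231 and 219 CPM with adult platelets and 252, 283 and 284 CPM with P7 platelets. These groups were also apart, and the step from adult to P7 platelets was 0.32 ± 0.06 (adjusted p = 0.00377, edgeR). Dars, for the aspartyl enzyme, had 53.2, 55.6 and 55.6 CPM in control, 72.7, 72.4 and 73.1 CPM with adult platelets and 82.5, 80.4 and 78.0 CPM with P7 platelets. Most of its rise, 0.41 of 0.55 on the log2 scale, was thus present with adult platelets. Dars was the 1 gene of the set whose change with adult platelets also passed a test against a fold of 1.2 (edgeR, glmTreat).

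Eprs, the glutamyl-prolyl enzyme gene, stood at 153, 169 and 175 CPM in control, at 181, 223 and 202 CPM with adult platelets and at 250, 290 and 286 CPM with P7 platelets. The lowest adult platelet library was close to the highest control library, and the P7 platelet libraries were all higher. Nars had 305, 323 and 323 CPM in control, 360, 401 and 376 CPM with adult platelets and 437, 531 and 541 CPM with P7 platelets. With adult platelets both were called at the edge of the threshold, Eprs at 0.29 ± 0.09 (adjusted p = 0.0449, edgeR) and Nars at 0.26 ± 0.08 (adjusted p = 0.0474), and with P7 platelets they rose by 0.73 ± 0.09 and 0.67 ± 0.08 (adjusted p = 0.000112 and 0.000122). Both calls for adult platelets were lost without any 1 of control replicates 1 to 3, adult platelet replicates 2 and 3 and P7 platelet replicates 2 and 3 (adjusted p = 0.0525 to 0.131), and that of Nars also without adult platelet replicate 1 (adjusted p = 0.0539).

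**Figure D2:**
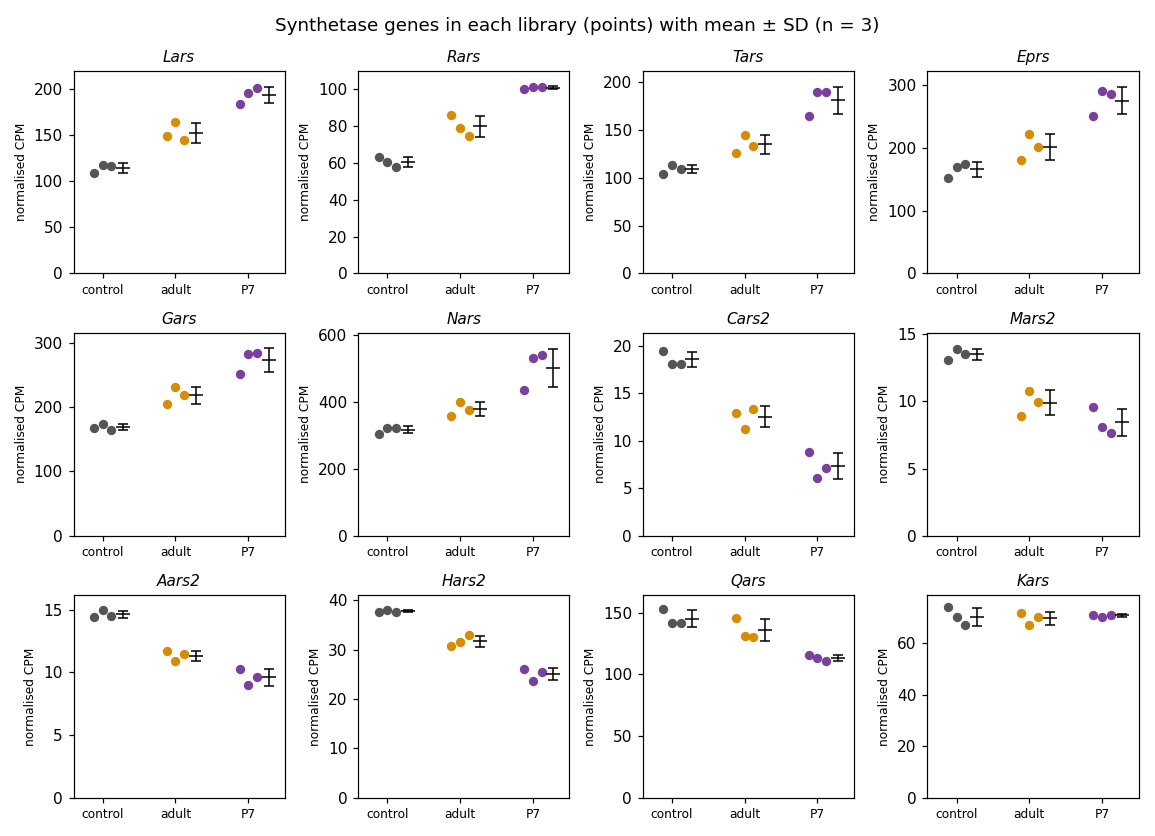
Normalised CPM of 12 synthetase genes in each library (points) with the mean ± SD of each group (n = 3), every axis starting at 0. Lars, Rars, Tars, Eprs, Gars and Nars step up from control to adult to P7 platelets, Cars2, Aars2 and Hars2 step down, Mars2 and Qars are lowest with P7 platelets, and Kars is level.

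The other cytosolic genes called higher with adult platelets were Yars (0.44 ± 0.07), Farsb (0.33 ± 0.05), Aars (0.32 ± 0.08), Cars (0.27 ± 0.07), Hars (0.21 ± 0.05) and Wars (0.17 ± 0.04), with adjusted p of 0.00115 to 0.0232 in edgeR. Farsb encodes the beta subunit of the phenylalanyl enzyme, and its alpha subunit gene Farsa was called with P7 platelets (0.29 ± 0.07, adjusted p = 0.00556) and not with adult platelets (0.13 ± 0.07, adjusted p = 0.184). Iars, for the isoleucyl enzyme, varied widely within groups: 125, 151 and 144 CPM in control, 145, 195 and 172 CPM with adult platelets and 193, 233 and 236 CPM with P7 platelets. It was called with P7 platelets (0.66 ± 0.12, adjusted p = 0.00121, edgeR), and not with adult platelets (0.29 ± 0.12, adjusted p = 0.107). Iars was called with adult platelets without adult platelet replicate 1 (0.39, adjusted p = 0.0399), with the replicate number as a block (adjusted p = 0.00538), with high Igkc as a model term (0.38, adjusted p = 0.00227) and without those libraries (0.41, adjusted p = 5.34e-05). Without 1 library, Aars was lost for adult platelets without control replicate 1 (adjusted p = 0.0537), Wars and Hars without control replicate 3 (adjusted p = 0.0585 and 0.0528), and Cars without any control replicate or adult platelet replicate 2 or 3 (adjusted p = 0.05001 to 0.0741).

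Aars, for the alanyl enzyme, rose from 290, 318 and 311 CPM in control to 360, 405 and 382 CPM with adult platelets and 414, 483 and 494 CPM with P7 platelets. Between P7 and adult platelets it differed by 0.28 ± 0.08 (adjusted p = 0.0188, edgeR), a call lost without adult platelet replicate 1 or P7 platelet replicate 2 or 3 (adjusted p = 0.0571 to 0.0782). Wars, the cytosolic tryptophanyl enzyme gene, had 49.6, 50.3 and 49.2 CPM in control, 55.7, 54.9 and 57.1 CPM with adult platelets and 58.6, 58.5 and 58.1 CPM with P7 platelets. The groups were apart but close together: Wars rose by 0.17 ± 0.04 and 0.23 ± 0.04 (adjusted p = 0.0131 and 0.00077, edgeR), and P7 and adult platelets differed by 0.06 ± 0.04 (adjusted p = 0.240).

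A few cytosolic genes stood outside the common direction. Kars, for the lysyl enzyme, had 74.0, 70.1 and 67.0 CPM in control, 72.0, 67.0 and 70.3 CPM with adult platelets and 71.2, 70.1 and 71.2 CPM with P7 platelets. These ranges overlapped, and its log2 fold changes were -0.01, 0.01 and 0.02, each ± 0.05 (adjusted p = 0.879, 0.881 and 0.758, edgeR). Vars, for the valyl enzyme, changed by 0.04 ± 0.05 and 0.10 ± 0.05 (adjusted p = 0.601 and 0.0936). Qars, for the glutaminyl enzyme, had 153, 141 and 142 CPM in control, 146, 131 and 130 CPM with adult platelets and 115, 114 and 111 CPM with P7 platelets. It was lower with P7 platelets than in either other group, by -0.36 ± 0.06 against control (adjusted p = 0.000574, edgeR) and -0.26 ± 0.06 against adult platelets (adjusted p = 0.00651), and its control and adult platelet ranges overlapped. Sars, for the seryl enzyme, had 156, 162 and 159 CPM in control, 159, 157 and 170 CPM with adult platelets and 136, 143 and 148 CPM with P7 platelets, which were the lowest. It was lower with P7 platelets by -0.16 ± 0.05 against control (adjusted p = 0.0217), a call lost without control replicate 2 or 3 or P7 platelet replicate 1 or 2 (adjusted p = 0.0575 to 0.0757).

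Across the groups, 11 of the 20 cytosolic genes stepped up from control to adult platelets to P7 platelets with no overlap between neighbouring groups, and 0 stepped down, beside 10.2% and 10.3% of all tested genes. These were Lars, Rars, Tars, Eprs, Gars, Nars, Farsb, Dars, Aars, Hars and Wars. The group means rose in this order in 17 of the 20. In the comparison of P7 with adult platelets the largest differences were those of Eprs (0.45 ± 0.09, adjusted p = 0.00405), Tars, Nars (0.41 ± 0.08, adjusted p = 0.00438), Iars (0.37 ± 0.12, adjusted p = 0.0362), Lars and Rars in edgeR. The call of Iars was lost without control replicate 3, adult platelet replicate 1 or 3 or P7 platelet replicate 2 or 3 (adjusted p = 0.0534 to 0.121), that of Dars without adult platelet replicate 3 or P7 platelet replicate 1 or 2 (adjusted p = 0.0519 to 0.0715), and that of Sars, which was lower by -0.19 ± 0.05, without adult platelet replicate 3 or P7 platelet replicate 1 or 2 (adjusted p = 0.0533 to 0.0589). When 1 library was left out, Yars and Cars were called in this comparison without P7 platelet replicate 1 (0.23 and 0.19, adjusted p = 0.0277 and 0.0432), and Farsa without adult platelet replicate 1 (0.24, adjusted p = 0.00698).

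Promoter sequence, from 250 bases before to 50 bases after the annotated start, was read from RefSeq (GRCm38.p6) for the 27 synthetase genes that its table holds, 13 cytosolic and 14 mitochondrial. The core of the ATF4 element, TGATGNAA on either strand, was present in 5 of the 13 cytosolic promoters, in 0 of the 14 mitochondrial ones and in 3.97% of the 32851 promoters in the table. A site of each of the 5 genes, shown because it holds the motif, follows as a window of 30 bases on the gene's strand, 5′ to 3′, with the motif in capitals. Positions count from the start as 1 with no 0. Where the motif lies on the opposite strand, as in all but Yars, the capitals show its reverse complement.
Aars, first motif base at 10, chr8:111033840-111033869, plus strand: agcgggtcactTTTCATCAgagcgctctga
Gars, first motif base at -30, chr6:55037960-55037989, plus strand: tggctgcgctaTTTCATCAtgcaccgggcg
Iars, first motif base at 8, chr13:49682126-49682155, plus strand: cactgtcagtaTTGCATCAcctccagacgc
Tars, first motif base at -15, chr15:11399655-11399684, minus strand: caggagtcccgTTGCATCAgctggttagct
Yars, first motif base at 4, chr4:129189895-129189924, plus strand: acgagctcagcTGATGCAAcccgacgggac
The 5 genes with such a site rose by 0.60 to 0.73 on the log2 scale with P7 platelets, and the 8 cytosolic genes whose window holds none ranged from -0.36 (Qars) to 0.73 (Eprs). A match is a description of letters, not of binding, and a window without one says nothing about the factor.

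The 250 bases upstream of the start are shown for Tars, which rose, and for Cars2, which had the largest fall of the set with P7 platelets. Capitals mark the ATF4 core, the E-box CACGTG bound by MYC and related factors, and the STAT site TTCNNNGAA, all searched on both strands.
Tars promoter, chr15:11399659-11399908, minus strand: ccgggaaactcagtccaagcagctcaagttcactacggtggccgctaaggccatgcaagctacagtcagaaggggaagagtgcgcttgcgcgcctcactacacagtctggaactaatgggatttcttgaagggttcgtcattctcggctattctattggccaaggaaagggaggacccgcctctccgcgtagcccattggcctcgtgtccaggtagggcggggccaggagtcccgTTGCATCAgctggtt
Cars2 promoter, chr8:11550772-11551021, minus strand: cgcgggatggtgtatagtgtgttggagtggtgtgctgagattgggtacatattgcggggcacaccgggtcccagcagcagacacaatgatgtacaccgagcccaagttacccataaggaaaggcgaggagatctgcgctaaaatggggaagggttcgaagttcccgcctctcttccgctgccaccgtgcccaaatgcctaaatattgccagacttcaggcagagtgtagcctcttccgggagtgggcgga
In this stretch Tars holds an ATF4 core, and Cars2 holds none of the 3 motifs. Over the full windows the E-box was present in Aars, Farsb, Iars and Tars of the cytosolic and in Ears2 of the mitochondrial genes, beside 7.15% of all promoters, and the STAT site in Aars, Kars and Nars2, beside 8.30%. The core of the interferon-stimulated response element, searched in the same way, was present in Qars, beside 3.44% of all promoters.

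The mitochondrial synthetase genes moved mostly the other way. With adult platelets 5 of the 17 were called lower and 1 higher than in control, beside 12% and 14.3% of all genes. With P7 platelets 11 were lower and 3 higher, beside 29.3% and 29.9%. Between P7 and adult platelets 5 were lower and 1 higher, beside 19.8% and 19.7%. Their median log2 fold changes were -0.16, -0.30 and -0.15. The group means fell from control to adult to P7 platelets in 11 of the 17. With no overlap between neighbouring groups, 5 stepped down (Cars2, Aars2, Hars2, Vars2 and Iars2) and 1 up, beside 10.3% and 10.2% of all tested genes.

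Cars2, the mitochondrial cysteinyl enzyme gene, stood at 19.5, 18.1 and 18.1 CPM in control, at 13.0, 11.3 and 13.4 CPM with adult platelets and at 8.80, 6.07 and 7.13 CPM with P7 platelets. The groups were apart, with P7 platelets lowest. The log2 fold change was -0.57 ± 0.12 for adult platelets (adjusted p = 0.00824, edgeR), -1.34 ± 0.12 for P7 platelets (adjusted p = 2.10e-05) and -0.77 ± 0.13 for P7 against adult platelets (adjusted p = 0.00139). Its cytosolic counterpart Cars rose over the same groups, by 0.27 ± 0.07 and 0.39 ± 0.07 (adjusted p = 0.0232 and 0.00132). Cars2 and Tars were the 2 genes of the set whose difference between P7 and adult platelets also passed a test against a fold of 1.2.

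Hars2, for the mitochondrial histidyl enzyme, had 37.6, 38.0 and 37.7 CPM in control, 30.7, 31.5 and 32.9 CPM with adult platelets and 26.1, 23.6 and 25.5 CPM with P7 platelets. Its neighbour Hars, the cytosolic gene, lies beside it on chromosome 18 and is read the opposite way, and had 63.2, 64.4 and 62.6 CPM, then 75.3, 75.3 and 69.6 CPM, then 87.5, 91.6 and 92.7 CPM. In every platelet library Hars was thus above and Hars2 below all control libraries. Hars2 changed by -0.25 ± 0.05 and -0.59 ± 0.05 (adjusted p = 0.00696 and 1.48e-05, edgeR), Hars by 0.21 ± 0.05 and 0.52 ± 0.05 (adjusted p = 0.0120 and 2.19e-05). The exons of both genes share 195 bases on opposite strands. The strand setting of the counting is not given in the sources used here, so reads from that stretch may not be assigned apart. The same limit holds for 12 further synthetase genes that share exonic bases with a gene on the opposite strand, such as Cars2 with Naxd (422 bases), Iars2 with Rab3gap2 (2034 bases) and Mars1 with Ddit3 (68 bases). Aars also shares 1326 exonic bases with Exosc6 on its own strand.

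Mars2, for the mitochondrial methionyl enzyme, had 13.1, 13.9 and 13.6 CPM in control, 8.94, 10.8 and 9.96 CPM with adult platelets and 9.57, 8.11 and 7.64 CPM with P7 platelets. Both platelet groups lay below control and overlapped each other. Aars2, for the alanyl enzyme, had 14.4, 15.0 and 14.5 CPM, then 11.7, 10.9 and 11.5 CPM, then 10.3, 8.97 and 9.60 CPM. With adult platelets the log2 fold change was -0.45 ± 0.10 for Mars2 and -0.37 ± 0.07 for Aars2 (adjusted p = 0.0102 and 0.00434, edgeR), and with P7 platelets -0.68 ± 0.10 and -0.60 ± 0.07 (adjusted p = 0.000332 and 6.33e-05). For P7 against adult platelets Aars2 was called (-0.24 ± 0.07, adjusted p = 0.0234), but not without adult platelet replicate 1 or 3 or P7 platelet replicate 2 or 3 (adjusted p = 0.0563 to 0.0873), while Mars2 (-0.23 ± 0.10, adjusted p = 0.101) was called when adult platelet replicate 1 or P7 platelet replicate 1 was left out (-0.30 and -0.33, adjusted p = 0.0499 and 0.0248).

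Vars2, for the valyl enzyme, fell from 15.7, 16.1 and 15.0 CPM in control to 14.0, 12.1 and 12.4 CPM with adult platelets and 9.70, 10.8 and 11.1 CPM with P7 platelets. Its call for adult platelets (-0.29 ± 0.08, adjusted p = 0.0267, edgeR) was lost without any 1 control replicate or adult platelet replicate 2 or 3 (adjusted p = 0.0510 to 0.0994), and its call for P7 against adult platelets (-0.28 ± 0.08, adjusted p = 0.0211) without adult or P7 platelet replicate 1 (adjusted p = 0.0592 and 0.0649).

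The other mitochondrial genes called lower with P7 platelets were Nars2 (-0.37 ± 0.14), Iars2 (-0.30 ± 0.05), Tars2 (-0.30 ± 0.08), Wars2 (-0.24 ± 0.09) and Fars2 (-0.20 ± 0.07), with adjusted p of 0.00111 to 0.0424 in edgeR. Nars2, at 3.36 to 5.46 CPM among the genes with the fewest counts, was lost without control replicate 2 or 3, adult platelet replicate 1 or P7 platelet replicate 1 or 2 (adjusted p = 0.0511 to 0.155). Wars2 had 10.4, 11.1 and 10.1 CPM in control, 8.41, 9.67 and 9.16 CPM with adult platelets and 9.14, 9.50 and 8.03 CPM with P7 platelets. Its platelet groups lay below control and overlapped each other, and its call was lost without any 1 control replicate or P7 platelet replicate 1 or 3 (adjusted p = 0.0533 to 0.149). The call of Fars2 was lost without any 1 control replicate or P7 platelet replicate 2 or 3 (adjusted p = 0.0688 to 0.128). Pars2, for the prolyl enzyme, was not called (-0.38 ± 0.16, adjusted p = 0.0661), but was with the replicate number as a block (adjusted p = 0.0316).

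Ears2 went against the class. It had 2.63, 2.76 and 2.36 CPM in control, 3.67, 3.58 and 3.50 CPM with adult platelets and 4.82, 4.75 and 4.37 CPM with P7 platelets, with all 3 groups apart and P7 platelets highest. The log2 fold change was 0.47 ± 0.11 for adult platelets (adjusted p = 0.0150, edgeR), 0.85 ± 0.11 for P7 platelets (adjusted p = 0.000179), the largest rise of the 37 genes, and 0.37 ± 0.11 between both (adjusted p = 0.0258). Leaving out control replicate 3 ended the first of these calls (adjusted p = 0.0639), and the last ended without adult platelet replicate 3 or P7 platelet replicate 1 or 2 (adjusted p = 0.0634 to 0.0807). Rars2 (0.28 ± 0.10, adjusted p = 0.0303) and Yars2 (0.22 ± 0.07, adjusted p = 0.0266) were called higher with P7 platelets, Rars2 not without control replicate 2 or 3 or P7 platelet replicate 1 or 2 (adjusted p = 0.0526 to 0.0812) and Yars2 not without control replicate 1 or 2 or P7 platelet replicate 2 or 3 (adjusted p = 0.0572 to 0.0974). Sars2 stayed between 15.1 and 17.5 CPM in all 9 libraries (0.01 ± 0.07 and 0.04 ± 0.07).

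Lars2, the most abundant mitochondrial synthetase transcript, had the largest standard errors of the set. It had 342, 290 and 359 CPM in control, 202, 225 and 256 CPM with adult platelets and 296, 195 and 358 CPM with P7 platelets. All adult platelet libraries were below control, whereas the P7 platelet libraries covered both ranges. None of its comparisons was called: -0.54 ± 0.19, -0.22 ± 0.19 and 0.31 ± 0.19 (adjusted p = 0.0694, 0.347 and 0.232, edgeR). Lars2 was called lower with adult platelets in several alternatives: without P7 platelet replicate 2 or 3 (adjusted p = 0.0157 and 0.0438), with DESeq2 (adjusted p = 0.0207), without a filter on low counts (adjusted p = 0.0233), with the compared groups alone (adjusted p = 0.0159) and with the replicate number as a block (adjusted p = 0.0217). It was called higher with P7 than with adult platelets without P7 platelet replicate 2 (0.52, adjusted p = 0.0195).

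Setting both classes side by side in each library, the balance of transcripts without Lars2 shifted from mitochondrial to cytosolic genes. The 20 cytosolic genes summed to 2484 ± 72.0 CPM in control, 2930 ± 115 CPM with adult platelets and 3462 ± 234 CPM with P7 platelets (SD, n = 3 each). The 16 mitochondrial genes without Lars2 summed to 275 ± 7.21, 247 ± 3.70 and 219 ± 8.92 CPM. Their ratio was 9.03 ± 0.42, 11.9 ± 0.63 and 15.9 ± 1.67, with control libraries at 8.56 to 9.37, adult platelet libraries at 11.3 to 12.5 and P7 platelet libraries at 13.9 to 16.9. With Lars2 the mitochondrial sum was 605 ± 32.9, 474 ± 24.7 and 502 ± 84.0 CPM, so the platelet groups then overlapped. P7 platelet libraries, at 408.6 to 571.7 CPM, then also reached the control range of 567.5 to 626.1 CPM. Lars2 holds 44.6 to 62.6% of the mitochondrial counts, the sums were planned for whole classes, and no ratio was taken with Lars2. Replicate 1, high in Igkc in every group, had the lowest cytosolic sum of each group. In control it had 2405 CPM, against 2546 and 2501 CPM in replicates 2 and 3. With adult platelets it had 2825 CPM, against 3052 CPM in replicate 2 and 2912 CPM in replicate 3, which is also high in Igkc. With P7 platelets it had 3192 CPM, against 3578 and 3615 CPM. The part of Igkc or of the replicate in this was not tested.

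**Figure D3:**
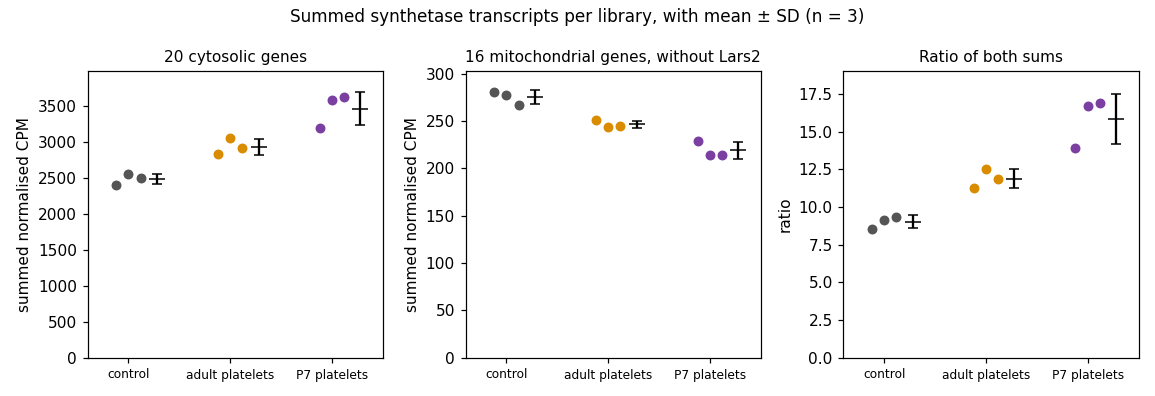
Summed normalised CPM per library of the 20 cytosolic genes (left), of the 16 mitochondrial genes without Lars2 (middle), and the ratio of both sums (right), as points with the mean ± SD of each group (n = 3) and axes from 0. The ratio without Lars2 rises from 9.03 in control to 11.9 with adult and 15.9 with P7 platelets, with no overlap between groups. With Lars2, the mitochondrial sums of the platelet groups overlap (452.8 to 501.2 CPM with adult and 408.6 to 571.7 CPM with P7 platelets).

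The same genes were also set in pairs by amino acid, so the counts of pairs are not separate from those above. In 18 pairs of a cytosolic and a mitochondrial gene, with Eprs paired to both Ears2 and Pars2, and Fars2 to both Farsa and Farsb, the cytosolic gene had the larger log2 fold change in 17 pairs for adult platelets, in 16 for P7 platelets and in 17 for P7 against adult platelets. The log2 ratio of cytosolic to mitochondrial CPM was above all control libraries in all 3 P7 platelet libraries for 16 of the 18 pairs. It stepped up over the 3 groups without overlap for 9. Of single genes, 34.5% of all tested lay above control without overlap with P7 platelets, and 10.2% stepped up. No such share was taken over other gene pairs. With P7 platelets the widest shift was that of cysteine: the log2 ratio of Cars to Cars2 was 2.87 ± 0.13 in control, 3.71 ± 0.18 with adult platelets and 4.61 ± 0.38 with P7 platelets. Alanine followed, with 4.39 ± 0.05, 5.07 ± 0.13 and 5.59 ± 0.23. With adult platelets leucine had the widest shift, a difference of 0.95 between the log2 fold changes of Lars and Lars2, ahead of cysteine (0.84) and alanine (0.69). The 2 pairs whose P7 platelet libraries were not all above control were Eprs with Ears2 and Sars with Sars2. Their log2 fold changes differed by -0.19 and -0.11 (Eprs with Ears2) and by 0.02 and -0.20 (Sars with Sars2) with adult and P7 platelets.

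**Figure D4:**
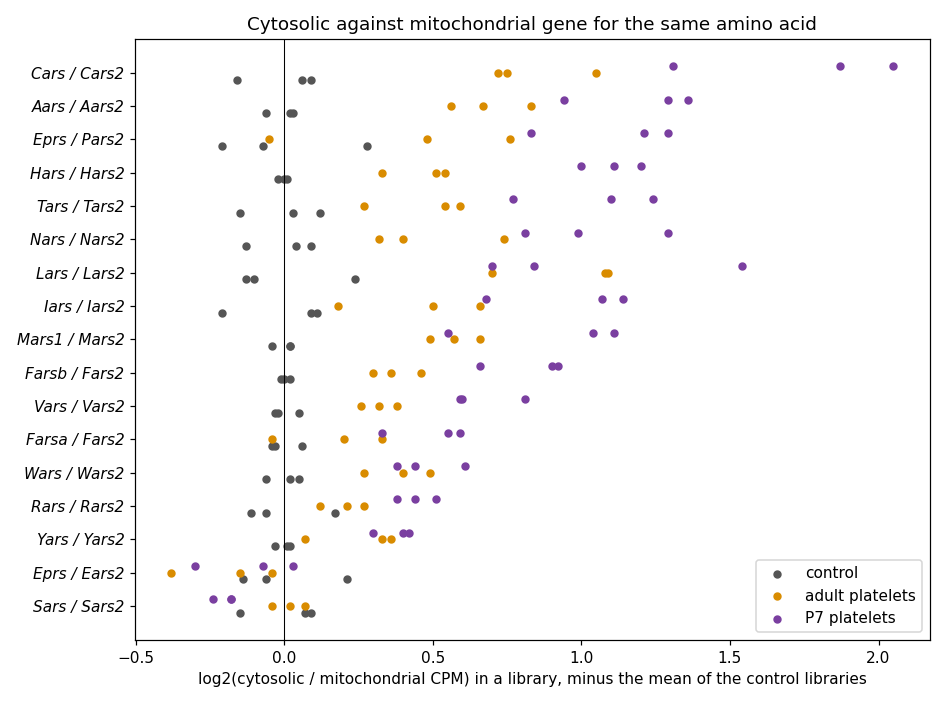
Log2 ratio of cytosolic to mitochondrial CPM for 17 of the 18 gene pairs in each of the 9 libraries, drawn relative to the mean of the control libraries of the pair. Points of P7 platelet libraries lie right of all control points in all pairs shown but Eprs with Ears2 and Sars with Sars2.

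Platelet, erythroid and mitochondrially encoded RNA rose over the same groups as the cytosolic synthetases, and its part in these differences was not tested. With those transcripts removed before scaling, the counts of called genes of both classes were the same in all 3 comparisons (cytosolic 13, 16 and 11 higher, mitochondrial 5, 11 and 5 lower). Such a removal changes the scaling alone, so it cannot tell synthetase RNA of monocytes from that of other cells. Without the 4 libraries with high Igkc, the cytosolic median log2 fold change was 0.34 for adult platelets against control and 0.27 for P7 against adult platelets. The mitochondrial median for adult platelets against control was then -0.15. That fit has 1 adult platelet library, which is assumed to vary like the other groups.

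Within the cytosolic class, members of the multi-synthetase complex did not all move together. Of its 8 synthetase genes, 4 were called higher with adult platelets (Dars, Eprs, Lars and Rars) and 6 with P7 platelets, where Iars and Mars1 joined them, Qars was lower and Kars was not called. Of all tested genes, 14.3% were called higher with adult and 29.9% with P7 platelets. The call of Mars1 (0.21 ± 0.07, adjusted p = 0.0310, edgeR) was lost without control replicate 1 or 3 or P7 platelet replicate 2 or 3 (adjusted p = 0.0615 to 0.115). Of the 12 cytosolic genes outside the complex, 9 and 10 were called higher. The 3 scaffold genes differed among themselves. Eef1e1 had 9.60, 9.06 and 9.75 CPM in control, 13.4, 13.4 and 10.2 CPM with adult platelets and 22.6, 22.7 and 22.3 CPM with P7 platelets, with log2 fold changes of 0.38 ± 0.10 and 1.25 ± 0.10 (adjusted p = 0.0226 and 9.14e-06). Aimp2 was called with P7 platelets (0.38 ± 0.12, adjusted p = 0.0206), and Aimp1 stood at 39.3 to 43.9 CPM throughout (0.01 ± 0.05 and -0.07 ± 0.05). By catalytic class, with Eprs counted in both, 8 of 10 class I genes and 9 of 11 class II genes were called higher with P7 platelets.

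Genes known as ATF4 targets outside the synthetases moved in the same direction. Of 29 tested, ATF4 itself included, 13 were called higher and 0 lower with adult platelets, 21 and 3 with P7 platelets, and 13 and 1 between P7 and adult platelets. The shares of all tested genes were 14.3% and 12%, 29.9% and 29.3%, and 19.7% and 19.8%. The list had median log2 fold changes of 0.28, 0.59 and 0.30. The 3 called lower with P7 platelets were Ddit3, Cebpg and Slc38a2, and Slc38a2 was also the 1 called lower between P7 and adult platelets. Asns, which makes asparagine, had 78.3, 75.8 and 77.3 CPM in control, 145, 149 and 134 CPM with adult platelets and 210, 233 and 228 CPM with P7 platelets, and rose by 0.88 ± 0.06 and 1.54 ± 0.06 (adjusted p = 1.59e-05 and 3.47e-07, edgeR). Ddit4, an inhibitor of mTORC1, rose by 0.86 ± 0.06 and 1.47 ± 0.06. Atf4 itself had 389, 378 and 377 CPM in control, 452, 460 and 481 CPM with adult platelets and 482, 482 and 481 CPM with P7 platelets. It rose by 0.28 ± 0.05 and 0.34 ± 0.05 (adjusted p = 0.00224 and 0.000183), with no call between P7 and adult platelets (0.05 ± 0.05, adjusted p = 0.399). Trib3 was called with both kinds of platelets (0.59 ± 0.17 and 0.61 ± 0.18), and Chac1 with P7 platelets (0.37 ± 0.13, adjusted p = 0.0379) and not with adult platelets (0.39 ± 0.13, adjusted p = 0.0574). Ddit3, which encodes CHOP, was lower with P7 platelets (-0.26 ± 0.10, adjusted p = 0.0373). Of the 13 cytosolic synthetase genes often listed as ATF4 targets, 9 were called higher with adult and 11 with P7 platelets, and of the 7 not listed, 4 and 5.

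Of 7 genes for the kinases upstream of ATF4, for eIF2 alpha and for partners of GCN2, 1 was called higher and 2 lower with adult platelets, and 3 and 2 with P7 platelets. With 14.3% and 12%, and 29.9% and 29.3%, of all genes called, counts in a list this short do not set it apart. Eif2ak3 (PERK) and Eif2ak4 (GCN2) were lower with both kinds of platelets, by -0.40 ± 0.08 and -0.84 ± 0.08 for Eif2ak3 and by -0.27 ± 0.08 and -0.52 ± 0.08 for Eif2ak4 (adjusted p = 2.06e-05 to 0.0371, edgeR). Eif2s1, which encodes the alpha subunit of eIF2 that these kinases phosphorylate, rose by 0.50 ± 0.05 and 0.91 ± 0.05, and Eif2ak2 (PKR), an interferon-induced kinase gene, was called with P7 platelets (1.56 ± 0.12). Myc rose to a similar extent with both, by 1.27 ± 0.14 and 1.24 ± 0.15 (adjusted p = 0.000388 and 7.81e-05), and the interval of their difference, -0.03 ± 0.14 (SE), covers 0. Mxd4, a MYC antagonist gene, changed by -0.58 ± 0.11 and -1.97 ± 0.11 (adjusted p = 0.00409 and 1.63e-06). Of 9 genes of MYC and its partners, Myc included, 1 was called higher and 1 lower with adult platelets, and 2 and 4 with P7 platelets, beside the same shares of all genes.

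Genes for the steps around charging are read beside the shares of all genes, 14.3% higher and 12% lower with adult and 29.9% and 29.3% with P7 platelets. Of 13 other genes of tRNA charging and repair of mischarged tRNA, 0 were called higher and 3 lower with adult platelets, and 1 and 5 with P7 platelets. Tarsl2, a threonyl-tRNA synthetase paralogue outside the set, had 2.95, 2.76 and 2.56 CPM in control, 1.46, 1.43 and 1.54 CPM with adult platelets and 0.502, 0.830 and 0.610 CPM with P7 platelets. The log2 fold changes of Tarsl2 were -0.90 ± 0.18 and -2.09 ± 0.20 (adjusted p = 0.00766 and 2.51e-05, edgeR), while Tars rose. Pstk, a kinase needed to make selenocysteinyl-tRNA, changed by -0.69 ± 0.19 with adult platelets and was lower again with P7 platelets (-0.61 ± 0.20 between them, adjusted p = 0.0343). Mtfmt, which formylates the mitochondrial initiator tRNA, changed by -0.27 ± 0.07 and -0.40 ± 0.07. Of 18 tested genes of tRNA maturation and export, 4 were called higher and 0 lower with adult platelets and 7 and 3 with P7 platelets. Among those higher were Xpot, the tRNA exporter (0.20 ± 0.06 and 0.37 ± 0.06), and the RNase P subunit gene Pop7 (0.25 ± 0.07 and 0.54 ± 0.07). Those lower with P7 platelets were Elac1 (-0.21 ± 0.05), Rtcb (-0.21 ± 0.05) and Rpp21 (-0.38 ± 0.09).

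RNA polymerase III transcribes the tRNA genes. Of 21 genes for its subunits, its factors and Maf1, 4 were called higher and 1 lower with adult platelets and 5 and 8 with P7 platelets, near the shares of all genes (14.3% and 12%, 29.9% and 29.3%). Polr3d rose by 0.46 ± 0.08 and 1.19 ± 0.08 (adjusted p = 0.00447 and 4.47e-06, edgeR), and Maf1, the repressor of this polymerase, had 93.1, 99.2 and 95.7 CPM in control, 88.2, 83.2 and 89.6 CPM with adult platelets and 64.7, 67.0 and 65.3 CPM with P7 platelets. Maf1 was lower with P7 platelets by -0.55 ± 0.05 (adjusted p = 1.38e-05), and with adult platelets its change of -0.14 ± 0.05 had an adjusted p of 0.0507. Of 7 cytosolic elongation factor genes only Eif5a was called higher than in control, by 0.36 ± 0.06 and 0.65 ± 0.06. Eef2, the translocation factor, and Eef2k were called lower with P7 platelets (-0.41 ± 0.06 and -0.94 ± 0.20). Of 5 mitochondrial elongation factor genes, Gfm1 rose (0.16 ± 0.05 and 0.43 ± 0.05) and Guf1 fell (-0.25 ± 0.07 and -0.35 ± 0.07). Gfm2 was called higher with P7 platelets (0.20 ± 0.06).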

How the data were processed

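Each deposited file gives, as counts without normalisation, the reads that the authors assigned to every gene symbol in 1 library. Per the labels' protocols, polyadenylated RNA went into stranded libraries that were read as 75 nt single ends. The submitters' processing notes list Salmon 1.3.0, featureCounts with Subread 2.0.1, STAR 2.7.6a and fastp 0.20.1. Which tool did what, and with which genome build, annotation and strand setting, is not given in the sources used here.

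Counts of all genes were fitted with edgeR 4.0.16 in R 4.3.3 by quasi-likelihood on all 9 libraries with 1 mean per group, TMM scaling and a filter on low counts (filterByExpr, minimum 10). This kept 13707 genes, and the fit has 6 residual degrees of freedom. Calls used Benjamini-Hochberg adjusted p below 0.05 over all genes of a comparison. Normalised CPM is given per library or as mean ± SD. The raw counts of synthetase genes ran from 89 to 16830 per library, so that the rarer mitochondrial genes are measured less precisely. The members and all gene lists were chosen with earlier results of these data known, so the lists are described by counts and medians with no test over the list. The rule for named members took from every comparison the called members with the largest change, at most 6 in each direction, with a mean log2 CPM of at least 2, and Wars, Wars2, Aars, Gars, Kars and Eprs. Other lists are shown by up to 3 members with the smallest p, and Atf4, Asns, Chac1, Ddit3, Trib3 and Myc. Other members and other genes named in the text were chosen after their values were seen. Gene lengths and overlaps come from GENCODE M21 (GRCm38), in which 36 of the 37 symbols match by name and Mars1 is listed as Mars. Values of 1 mitochondrial gene and 1 promoter sequence are not reported here, though the counts include them. Promoters come from the RefSeq table (GRCm38.p6).

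No libraries of a group were copies of each other. Same-numbered P7 platelet and control libraries deviated together (correlations of deviations from the group means 0.576, 0.209 and 0.335). So did control replicate 2 with P7 platelet replicate 3 (0.307), and control replicate 3 with P7 platelet replicate 2 (0.205). Pairs of replicate 1 with another number ran from -0.464 to -0.299. The numbers were thus not shown to pair replicates 2 and 3. A fit with the replicate number as a block is given where it changes a call in that comparison. Alternatives were other scalings, no or a stricter filter, DESeq2 1.42.0, limma-voom (limma 3.58.1), a block for the replicate number, a fit of the compared groups alone, removal of platelet, erythroid and mitochondrially encoded transcripts, leaving out each library, and a test against a fold of 1.2. A model term marking libraries of high Igkc, a fit without them, and levels by the longest coding transcript were chosen after seeing the data. The fit was tested on simulated data with planted changes.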

Additional observations from a re-analysis of the deposited data

How the results depend on the processing

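No class median changed direction, nor did any synthetase gene called in the main fit or in the alternative. Genes called in neither were not checked for this. Upper-quartile scaling moved the median of all genes from -0.01 to -0.12 for P7 platelets against control and from -0.02 to -0.10 for P7 against adult platelets, and the calls over all genes from 4097 higher and 4014 lower to 3279 and 5012, from 2706 and 2718 to 2106 and 3556, and, for adult platelets against control, from 1966 and 1651 to 1620 and 1945. The cytosolic medians were then 0.47 and 0.15, the mitochondrial median for P7 platelets was -0.41, 1 mitochondrial gene was higher with P7 platelets, and 0 were higher and 8 lower between P7 and adult platelets. Against a fold of 1.2, 1 cytosolic gene was called higher and 0 mitochondrial genes in either direction with adult platelets. With P7 platelets 13 cytosolic genes and 1 mitochondrial gene were then higher, and 5 mitochondrial and 0 cytosolic genes lower. Between P7 and adult platelets 1 gene was higher (cytosolic) and 1 lower (mitochondrial). Of all 13707 genes, 649, 2577 and 1346 were then called higher and 471, 2608 and 1206 lower in these 3 comparisons. Without a filter on low counts, and without the libraries with high Igkc, 0 mitochondrial genes were called higher for adult platelets and for P7 against adult platelets. Without those libraries 1 cytosolic gene was lower between P7 and adult platelets, and the cytosolic median for adult platelets was 0.34 (0.33 with a term for them). With only the groups compared, 3 mitochondrial genes were lower between P7 and adult platelets. The cause was not tested for these changes.

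Leaving out 1 library gave 8 (without control replicate 3) to 14 genes higher for adult platelets, 8 to 13 of them cytosolic and 0 to 1 mitochondrial, and 4 to 6 lower, all mitochondrial. For P7 platelets it gave 16 to 20 higher (15 to 17 cytosolic, 1 to 3 mitochondrial) and 9 to 13 lower (1 to 2 cytosolic, 8 to 11 mitochondrial). For P7 against adult platelets it gave 9 to 12 higher (8 to 12 cytosolic, 0 to 1 mitochondrial) and 5 to 8 lower (1 to 2 cytosolic, 4 to 7 mitochondrial). The cytosolic medians ranged from 0.22 to 0.32, 0.54 to 0.60 and 0.20 to 0.27, and the mitochondrial ones from -0.21 to -0.14, -0.35 to -0.27 and -0.21 to -0.12. Of the 19, 32 and 19 called genes, 1, 19 and 2 were called under all 21 alternatives. The test against a fold of 1.2, which asks for a larger change than the main test, by itself ended 18, 13 and 17 of these calls. Other settings that ended calls were upper-quartile scaling (Eprs and Nars for adult platelets, Mars1, Rars2 and Yars2 for P7 platelets, Dars, Ears2 and Iars between both), DESeq2 (Fars2, Nars2, Wars2 and Yars2 for P7 platelets, Aars2 between both), the fit of the compared groups alone (Eprs for adult platelets, Aars2, Dars, Iars and Vars2 between both) and no filter (Ears2, Vars2 and Wars for adult platelets, Fars2, Nars2, Wars2 and Yars2 for P7 platelets, Aars2, Dars and Ears2 between both). Without the libraries with high Igkc, calls ended for Ears2 with adult platelets and for Aars2, Ears2, Sars and Vars2 between both. DESeq2 size factors ended that of Nars for adult platelets.

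In none of the comparisons were the replicate numbers shown to pair all libraries. For P7 platelets with control, replicates 2 and 3 also deviated together across numbers, as given above. For adult platelets with control, the correlations of replicates 1 to 3 were 0.557, 0.346 and -0.077. For P7 with adult platelets they were 0.486, 0.281 and -0.081. The replicate block gave 15 genes higher and 7 lower for adult platelets (Iars, Iars2 and Lars2 added), 19 and 14 for P7 platelets, and 13 and 8 for P7 against adult platelets (Iars2 and Yars added), and it ended no call.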
